A study of Mus musculus with 8 samples.

Results

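The 9 genes described here encode the receptors for thyroid hormone (Thra and Thrb), the retinoid X receptors that pair with them (Rxra, Rxrb and Rxrg), and 4 cofactors of these receptors (Ncor1, Ncoa1, Ncoa2 and Med1). They were chosen by name, among 55450 genes in the count tables, and all 9 had enough reads to be tested. They were measured as nuclear RNA of GABAergic neurons, which inhibit other neurons, sorted from the cortex of juvenile mice. Control mice had the genotype Thra+/+, and mutant mice had the genotype Thra+/AMI, in which 1 Thra allele encodes a dominant-negative receptor once Cre recombinase has acted. Per the series' design text, a Cre driver for GABAergic neurons and a loxP-controlled reporter for a fluorescent nuclear protein were used, and fluorescent nuclei were sorted from the cortex, so that the controls differed from the mutants by the Thra allele. The promoter that drives Cre is not named there. Each library came from 1 cortex.

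Thyroid hormone receptors sit on DNA as partners of RXR, at response elements built from the hexamer AGGTCA, and act both without and with hormone. Without hormone they hold corepressors such as NCOR1, which bring a histone deacetylase to the gene. Hormone binding moves the last helix of the receptor, releases the corepressor, and lets coactivators of the p160 family (NCOA1, NCOA2 and NCOA3) and then the Mediator complex, through MED1, come in. A dominant-negative receptor keeps its place on DNA and its hold on corepressors, and thereby represses hormone-responsive genes. In the cortex, TRα is the prevailing receptor and parvalbumin neurons are known to need thyroid hormone to mature.

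The series lists 4 control and 4 mutant samples. The table of mutant 10 held the same counts as that of mutant 7 in all 55220 genes that could be compared, so both were counted as 1 sample, and 4 controls (1 to 4) were compared with 3 mutants (6, 7 and 8). Total counts ran from 10747169 to 13804734 per library. All 13127 genes without a base of their own, because other annotated genes cover their whole span, had 0 reads in all 7 libraries, including 6263 covered only by genes on the opposite strand. Reads thus behaved as if assigned to whole gene spans, introns included and without regard to strand, with reads in shared stretches left out. Such genes are not measured here, among them Dlx1, Dlx6, Gfap, P2ry12 and the transporter gene Slc7a5. Between 75.8% and 100% of the span of each of the 9 genes is its own. The cell type label was checked with Gad1 and Gad2, which make GABA, at 569 and 403 CPM in controls and 637 and 435 CPM in mutants (CPM are counts scaled to the library total, adjusted by TMM and given per 1e6 reads). The excitatory marker Slc17a7 was at 72.2 and 67.2 CPM, so RNA of glutamatergic cells was not absent. Slc32a1, the vesicular GABA transporter gene, was lower than Slc17a7, at 24.7 and 24.3 CPM. These CPM are not per kb. The spans that no other gene covers are 38657 bp (Gad1), 71507 bp (Gad2), 4071 bp (Slc32a1) and 12135 bp (Slc17a7). The share of glutamatergic RNA thus cannot be read from these CPM. These values are from bulk nuclei, in which fewer cells of a type and less RNA per cell cannot be told apart.

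Control 1 and control 4 differed from each other in a trend with gene length. Over 16448 tested genes, Spearman's rho between the log2 ratio of control 1 to control 4 and the genomic length was -0.60, and over the 9 genes it was -0.75, both as descriptions across genes of the same 2 libraries. Control 1 was lower than control 4 for Thrb (log2 ratio -1.52, span of 377830 bp), Ncoa2 (-0.87) and Ncoa1 (-0.44), and higher for Rxrb (0.69, span of 6588 bp). For the other 5 genes the ratio lay between -0.01 and 0.16. Values without these libraries stand beside the genes for which they differ most. Control 4 and mutant 8 had 4 and 3 reads of Y-linked genes, against 5094 to 6644 in the other libraries. So few Y-linked reads are the pattern of female animals, and sex was not a term in the fits. Among the controls, only control 4 had this pattern, so sex and that library cannot be told apart there.

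Promoters are shown for the called gene and for the members with a promoter window that holds the receptor's hexamer. The RefSeq table (GRCm38.p6) gave 12 promoter windows of 300 bases for 7 of the 9 genes, all but Thra and Ncoa2. The hexamer AGGTCA, searched on both strands, was found in 3 of these 12 windows and in 16.3% of all 32851 windows. The full direct repeat, AGGTCA repeated after any 4 bases, was in 0 of the 12 windows and in 5 of the 32851 (0.0152%). The stretches around each hexamer follow 5′ to 3′ on the plus strand, which is the strand of all 3 genes, with the hexamer or its complement in capitals. In Thrb it begins at -184 from an annotated start, in Rxrg at -88, and in Rxra at -87 and -48. Each of these genes has another annotated start, whose window held no hexamer. For Rxrg and Rxra the window with the hexamer belongs to the more downstream start.
Thrb chr14:17660764-17660793: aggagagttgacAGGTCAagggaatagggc
Rxrg chr1:167618165-167618194: atcggggttgaaAGGTCAgctgaaagcttc
Rxra chr2:27709193-27709222: tagaaatgggtgTGACCTgagtaatggtca
Rxra chr2:27709232-27709261: gggtggcaggaaAGGTCAgtcactctctgt
The 250 bases before the start of Ncoa1 (chr12:4477183-4477432, read on the minus strand) held no hexamer. They are 85.6% G or C, against a median of 52.4% over all windows, and hold 7 matches to GGGCGG, the GC box, shown in capitals. A GC box on either strand was present in 32.7% of all such stretches.
Ncoa1 promoter: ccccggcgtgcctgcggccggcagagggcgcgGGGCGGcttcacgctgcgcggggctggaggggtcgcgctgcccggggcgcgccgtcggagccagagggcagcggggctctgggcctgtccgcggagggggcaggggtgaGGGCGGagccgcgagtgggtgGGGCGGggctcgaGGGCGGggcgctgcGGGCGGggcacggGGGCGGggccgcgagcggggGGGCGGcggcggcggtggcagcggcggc
These matches describe the letters of the windows and say nothing about binding.

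The comparison of mutants with controls asks whether the receptor and cofactor genes themselves change when 1 Thra allele is dominant-negative. Of the 9 genes, 1 passed an adjusted p of 0.05 in edgeR's quasi-likelihood test, the coactivator gene Ncoa1, which fell. The share called over all 16448 tested genes was 9.42%, so 1 of 9 is close to the background. For Thra, Rxrb, Rxrg and Ncoa1, 4 of the 9, every mutant lay on the same side of every control in CPM, as was so for 22.0% of all tested genes. The median log2 fold change of the 9 genes was -0.21, with 7 of them lower, against -0.01 over all tested genes, of which 8560 were lower. The plot of CPM by library shows the values behind this.

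**Figure D1:**
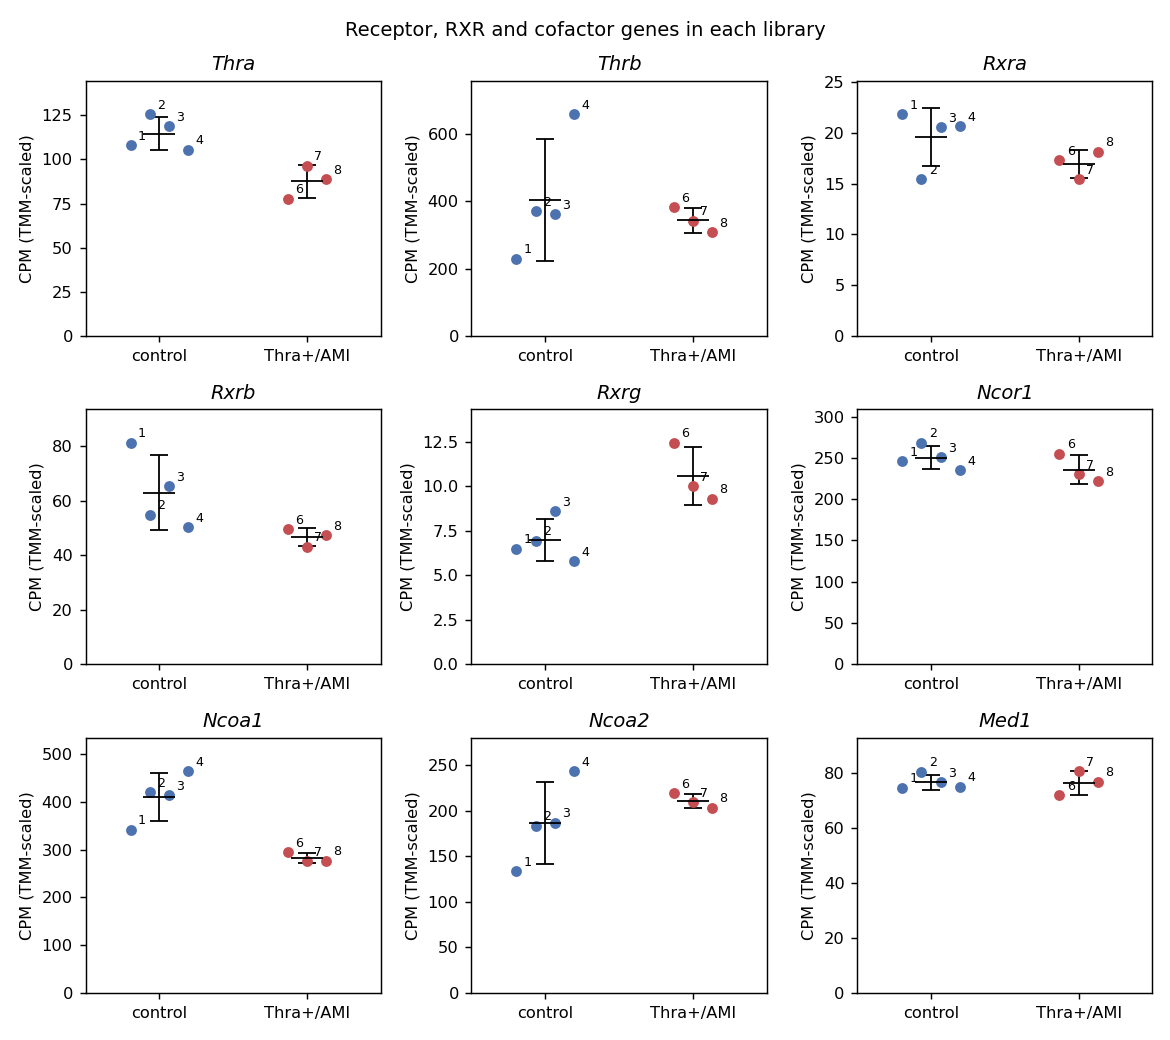
CPM (TMM-scaled, y axis from 0) of the 9 genes in each library, numbered as the samples are, with the mean and SD of 4 controls (blue) and 3 Thra+/AMI mutants (red). Thra, Rxrb and Ncoa1 lie lower in all 3 mutants than in all 4 controls, Rxrg lies higher, and for Thrb controls 1 and 4 lie at either end.

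Thra encodes TRα1, the receptor changed by the mutation, and a splice form that does not bind hormone, and it was the targeted gene. Thra (ENSMUSG00000058756.13, GRCm38 chr11:98740638-98769006, plus strand) was at 108, 126, 119 and 105 CPM in controls 1 to 4 and at 77.6, 96.3 and 88.6 CPM in mutants 6, 7 and 8. Every mutant was below every control, with mutant 6 lowest. The means were 114 ± 9.35 CPM (SD, n = 4) and 87.5 ± 9.39 CPM (SD, n = 3), from 1308 to 1661 reads per control and 992 to 1133 per mutant. The log2 fold change was -0.39 (SE 0.11, 95% interval -0.64 to -0.14), and it did not pass the threshold (edgeR adjusted p 0.0543). It passed without control 1 (adjusted p 0.0275) or without control 4 (0.0149), and without any 1 of the other 5 libraries the adjusted p was 0.0919 to 0.239. The counts add both alleles and all splice forms, so they do not check the mutation itself. Nr1d1, the clock gene that overlaps the 3′ end of Thra on the opposite strand, covers 3.79% of its span, and reads there would fall to neither gene. Nr1d1 was at 20.2 ± 3.75 CPM in controls and 14.7 ± 4.55 CPM in mutants (log2 fold change -0.46, SE 0.21, edgeR adjusted p 0.228), with overlapping groups.

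Thrb encodes TRβ, the other hormone receptor. Thrb (ENSMUSG00000021779.17, chr14:17660261-18038090, plus strand) was at 229, 371, 362 and 659 CPM in controls 1 to 4 and at 382, 343 and 308 CPM in mutants 6, 7 and 8. The 3 mutants lay within the range of the controls, whose spread was set by control 1 at the bottom and control 4 at the top. The coefficient of variation was 44.7% in controls and 10.8% in mutants, where counting error alone would give 1.39% and 1.55%. The log2 fold change was -0.23 (SE 0.27, 95% interval -0.83 to 0.36, edgeR adjusted p 0.685). Its sign turned without control 4 (0.10, adjusted p 0.744), so neither a direction nor a lack of change was shown for Thrb.

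The ratio of Thrb to Thra was described in each library, per kb of merged exons. Controls 1 to 4 had ratios of 1.32, 1.84, 1.90 and 3.89, and mutants 6, 7 and 8 had ratios of 3.07, 2.22 and 2.17. The mutants lay above 3 of the controls and below control 4. Per kb of the span that no other gene covers, the same ratio was below 1 in every library, from 0.202 to 0.596, because Thrb is a far longer gene. Which receptor gene was the more abundant thus turned on the length used, and isoforms cannot be separated in these counts. Reads behaved as if counted over whole spans, so merged exons are not the length over which they were counted.

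The RXR genes encode the shared partners of thyroid hormone, retinoic acid and vitamin D receptors. Rxrb (chr17:34031812-34038399, plus strand) was at 81.3, 54.9, 65.5 and 50.3 CPM in controls 1 to 4 and at 49.5, 43.2 and 47.5 CPM in mutants 6, 7 and 8. The groups did not overlap, but control 4 was only just above mutant 6. The log2 fold change was -0.43 (SE 0.16, 95% interval -0.77 to -0.09) and did not pass (edgeR adjusted p 0.116). It passed without control 4 (-0.52, adjusted p 0.0147) and was -0.28 without control 1 (adjusted p 0.172). It also passed in edgeR without control 1 and control 4 together (-0.37, adjusted p 0.0249) and with an offset for gene length (-0.38, adjusted p 0.0288). In limma-voom with quality weights, hereafter limma-voom, it passed as well (-0.41, adjusted p 0.0161). These weights differ by library, so libraries do not count equally there.

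Rxrg, the RXR gene with the most restricted expression in the brain, was the member with the largest fold change, and the 1 whose groups separated upward. Rxrg (chr1:167598384-167639623, plus strand) was at 6.50, 6.95, 8.60 and 5.81 CPM in controls 1 to 4 and at 12.4, 10.0 and 9.31 CPM in mutants 6, 7 and 8. All 3 mutants were above all 4 controls, on 72 to 113 reads per control and 109 to 159 per mutant. The log2 fold change was 0.60 (SE 0.20, 95% interval 0.17 to 1.04), and it did not pass (edgeR adjusted p 0.0858). It did not pass under any of the 15 other settings either, with log2 fold changes of 0.43 to 0.72.

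Rxra (chr2:27676440-27762957, plus strand) was at 15.4 to 21.8 CPM in controls and 15.4 to 18.1 CPM in mutants, with overlapping groups. Its log2 fold change was -0.21 (SE 0.16, 95% interval -0.55 to 0.13, edgeR adjusted p 0.498), and it was -0.085 without control 1 and control 4 (adjusted p 0.807). Among the 3 RXR genes, taken per kb of merged exons, Rxrb held 66.8% to 75.0% of the sum in controls and 59.2% to 61.8% in mutants. Rxrg held 10.4% to 15.6% of it in controls and 21.0% to 25.7% in mutants, and Rxra held on average 16.1% ± 2.58 (SD, n = 4) and 16.0% ± 1.11 (SD, n = 3). Rxrb held the largest share in every library, also per kb of unshared span, where it held 93.7% to 96.8%. On that length, which matches the inferred counting, Rxrg held only 1.24% to 2.01% in controls and 2.95% to 3.76% in mutants. Rxra held 1.98% to 2.98% and 2.49% to 2.74% there. The size of the Rxrg share thus turned on the length used.

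Ncoa1 encodes SRC-1, a p160 coactivator that binds hormone-loaded receptors and brings histone acetyltransferases. It was the called member, and the fold changes of all 9 are set side by side in the plot of log2 fold changes. Ncoa1 (ENSMUSG00000020647.10, chr12:4247362-4477182, minus strand) was at 342, 419.9, 414 and 464 CPM in controls 1 to 4 and at 295, 275 and 277 CPM in mutants 6, 7 and 8. The lowest control, control 1, was still above the highest mutant. Ncoa1 fell from 409.9 ± 50.5 CPM (SD, n = 4) to 282 ± 10.7 CPM (SD, n = 3). On the log2 scale this was -0.54 (SE 0.14, 95% interval -0.84 to -0.24, edgeR adjusted p 0.0282), or 0.689 times the control level. These values rest on 4312 to 5754 reads per control and 3000 to 3766 per mutant. The call was lost without control 2, without control 3, and without mutant 6, 7 or 8, at log2 fold changes of -0.57 to -0.51 and edgeR adjusted p-values of 0.0857 to 0.149. Without control 1 and control 4 together the log2 fold change was -0.56 (edgeR adjusted p 6.09e-05), and without control 4 and mutant 8 together it was -0.46 (adjusted p 0.0796).

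**Figure D2:**
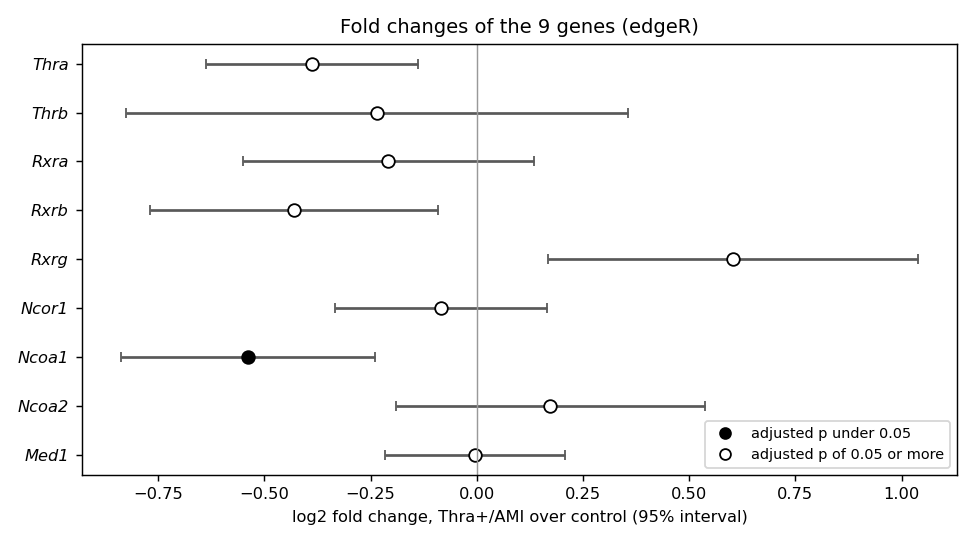
Log2 fold change of Thra+/AMI over control (x axis) for the 9 genes, with 95% intervals from edgeR, 4 controls against 3 mutants. Ncoa1, filled, passed the threshold at -0.54, and the intervals of Thra, Rxrb and Rxrg leave out 0 before adjustment over all genes.

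The other p160 gene among the 9, Ncoa2, did not follow Ncoa1. Ncoa2 (chr1:13139105-13374083, minus strand) was at 133, 183, 187 and 243 CPM in controls 1 to 4 and at 219, 209 and 203 CPM in mutants 6, 7 and 8. The mutants lay between the controls, of which control 1 was lowest and control 4 highest. The log2 fold change was 0.17 (SE 0.17, 95% interval -0.19 to 0.54, edgeR adjusted p 0.615). It was 0.047 without control 1 (edgeR adjusted p 0.864), 0.33 without control 4 (adjusted p 0.105) and 0.35 without control 4 and mutant 8 (adjusted p 0.191), so its size rested on these libraries. The ratio of Ncoa2 to Ncoa1, a pair chosen after its values were seen, was 0.214 to 0.287 in controls and 0.402 to 0.417 in mutants, per kb of merged exons. The genes span 229821 bp (Ncoa1) and 234979 bp (Ncoa2), and their ratio was higher in every mutant than in every control. Its denominator, Ncoa1, was itself lower in every mutant, so the ratio is not separate from that fall.

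Ncor1, the corepressor that holds histone deacetylase 3 on receptors without hormone (chr11:62316426-62458541, minus strand), was at 246, 268, 251 and 235 CPM in controls 1 to 4 and at 255, 230.3 and 222 CPM in mutants 6, 7 and 8. The groups overlapped, with a log2 fold change of -0.09 (SE 0.11, 95% interval -0.33 to 0.16, edgeR adjusted p 0.736). The ratio of Ncor1 to Ncoa1 per kb of merged exons was 0.339 to 0.482 in controls and 0.536 to 0.579 in mutants, so it was higher in every mutant than in every control. On the log2 scale the mean ratio was 0.44 higher in mutants. Ncoa1, its denominator, was itself lower in every mutant, so this ratio is no result apart from the fall of Ncoa1.

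Med1, the Mediator subunit that docks on hormone-loaded receptors, had the smallest coefficient of variation of the 9 in controls. It (chr11:98152154-98193293, minus strand) was at 74.7, 80.6, 76.7 and 75.1 CPM in controls 1 to 4 and at 71.98, 80.8 and 76.9 CPM in mutants 6, 7 and 8. The coefficient of variation in controls was 3.48%, where counting error alone would give 3.18%. The log2 fold change was -0.0041 (SE 0.10, 95% interval -0.22 to 0.21, edgeR adjusted p 0.987), so a change beyond that interval was not seen at this depth. Med1 lies 547 kb from Thra on chromosome 11.

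Levels were compared between genes per kb, on both lengths, as the plot of levels shows. Of these, the unshared span is the length that matches the inferred counting. Per kb of merged exons the order in controls was Thrb (54.7 ± 24.5), Ncoa1 (47.8 ± 5.89), Thra (24.8 ± 2.03), Ncor1 (19.5 ± 1.09), Rxrb (15.9 ± 3.46), Ncoa2 (11.9 ± 2.87), Med1 (8.77 ± 0.305), Rxra (3.59 ± 0.522) and Rxrg (3.03 ± 0.517), all as CPM per kb with the SD over 4 controls. The ranges of neighbours overlapped in this order except between Ncoa1 and Thra, Thra and Ncor1, and Med1 and Rxra. Per kb of unshared gene span, Rxrb came first (9.56 ± 2.09) and Thra second (4.19 ± 0.343), both apart from their next neighbour. Ncor1, Med1, Ncoa1, Thrb and Ncoa2 followed with overlapping neighbours (from 1.93 down to 0.843). Rxra (0.227 ± 0.033) and Rxrg (0.169 ± 0.0288) were last on both lengths in controls, and in mutants Rxrg (0.257 ± 0.0399) was above Rxra (0.196 ± 0.0161).

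**Figure D3:**
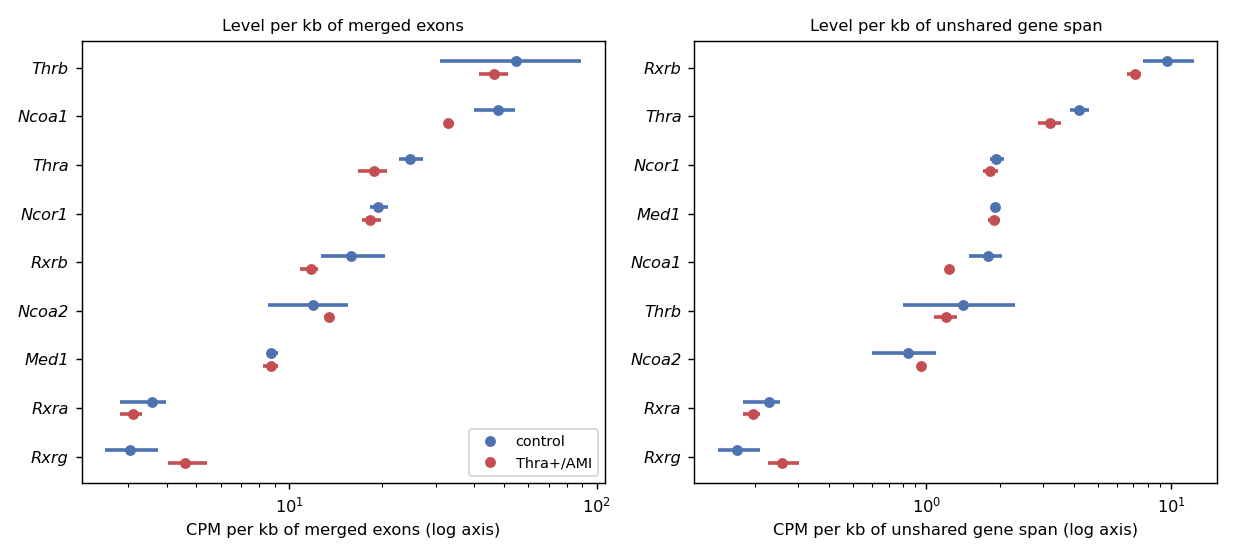
Level of each gene as CPM per kb of merged exons (left) and per kb of unshared gene span (right), on log axes. Points are means and lines the range over 4 controls (blue) or 3 Thra+/AMI mutants (red). Rxra and Rxrg are lowest on both lengths, and Thrb drops from the top on the left to the lower middle on the right.

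The genes most like Thra over the 7 libraries, among 11797 with a mean of at least 5 CPM, were 4632415L05Rik (Pearson's r of log2 CPM 0.983), Prss12 (0.979) and Ccdc92 (0.977). Of these, Prss12, a serine protease of neurons, fell (log2 fold change -0.74, edgeR adjusted p 0.0102), as did Ccdc92 (-0.40, adjusted p 0.0427). The genes most like Thrb were Ppm1h (0.997), Grin2b (0.996), a subunit of the NMDA receptor, and Frmd4a (0.993). None of these 3 was called, and their spans are 267034, 460279 and 596327 bp, beside 377830 bp for Thrb. The part of gene length in this likeness was not tested. All these correlations are descriptions over libraries that share depth and genotype.

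Genes of the same machinery that are not among the 9 were taken as lists, and the plot of related lists gives their fold changes. These lists were drawn up with earlier results of these data known. Of 11 other coactivator genes, all tested, 2 were called lower and 0 higher (median log2 fold change -0.05), where 4.78% of all tested genes were called lower and 4.63% higher. Ncoa3, the remaining p160 gene, fell from 175 to 116 CPM (log2 fold change -0.59, SE 0.12, edgeR adjusted p 0.00992). Of the p160 genes, then, Ncoa1 and Ncoa3 were called lower and Ncoa2 was not called. Ppargc1a encodes PGC-1α, a coactivator of metabolic genes that is abundant in parvalbumin neurons, and fell from 180.3 to 107 CPM (log2 fold change -0.76, SE 0.13, edgeR adjusted p 0.0028). Ppargc1a was called in all 15 other settings, and Ncoa3 in 14, all but the fit without mutant 6 (-0.49, adjusted p 0.0706). The other 9 genes of the list were not called.

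**Figure D4:**
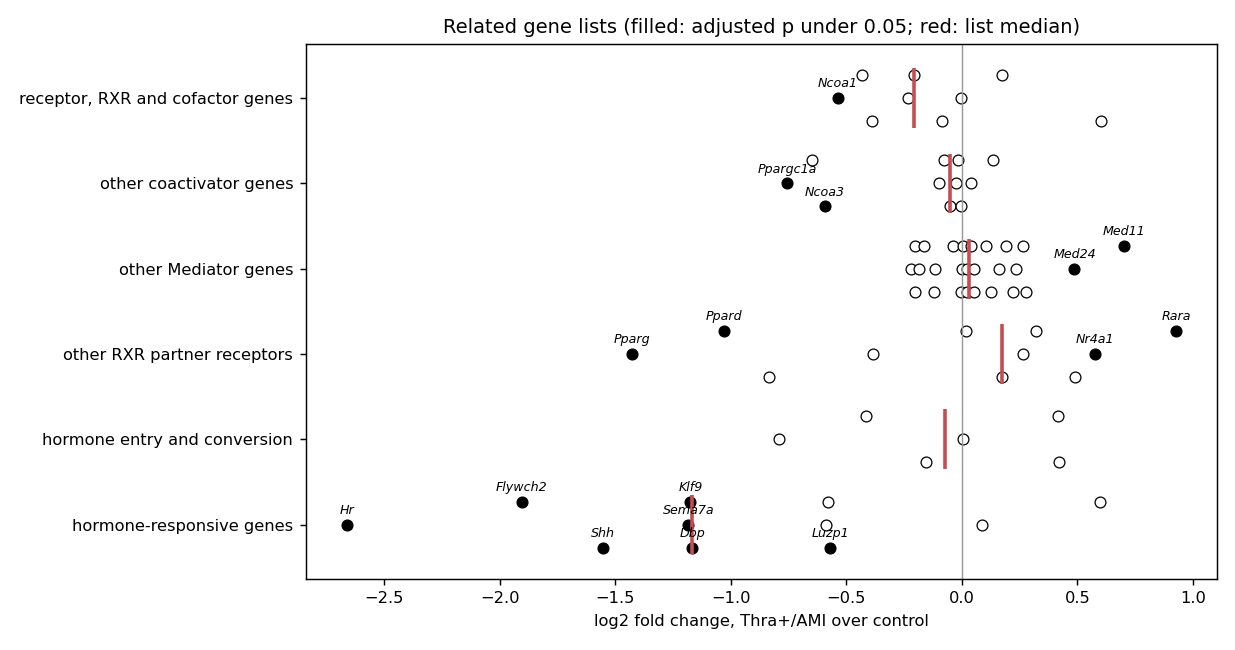
Log2 fold change of Thra+/AMI over control (x axis) for the tested genes of each list, with called genes filled and named and a red line at the list median. Called genes lie at -0.59 and -0.76 among the coactivator genes, and at -0.57 to -2.66 among hormone-responsive genes.

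Of 26 tested Mediator genes other than Med1, 2 were called higher and 0 lower (median 0.03), where 9.42% of all tested genes were called in either direction. The list as a whole was thus not called more often than other genes. Med11 rose by 0.70 on the log2 scale (SE 0.20, edgeR adjusted p 0.0427), with means of 5.63 and 9.17 CPM, on 56 to 128 reads per library. Med24 rose by 0.49 (SE 0.13, edgeR adjusted p 0.0325), with means of 135 and 189 CPM, and lies 11.2 kb from Thra (chr11:98704591-98729435). The call of Med24 was lost in 6 of 15 other settings and that of Med11 in 9, at adjusted p-values of up to 0.14 and 0.201, and for both this included the fits without control 2, without control 3 and without any 1 mutant. The other 24 genes were not called.

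Receptors that also pair with RXR went both ways, with 2 of 11 tested genes called lower, 2 called higher and a median of 0.17. Over all tested genes, 4.78% were called lower and 4.63% higher. Pparg, a lipid-sensing receptor, fell from 72.6 to 26.9 CPM (log2 fold change -1.43, SE 0.18, edgeR adjusted p 0.000445). Ppard, of the same family, fell from 34.4 to 16.8 CPM (-1.03, SE 0.23, adjusted p 0.0157 in edgeR). Rara, a retinoic acid receptor that lies 159 kb from Thra, rose from 8.88 to 16.9 CPM (0.93, SE 0.16, adjusted p 0.00361 in edgeR). Nr4a1, an activity-induced receptor, rose from 52.0 to 77.5 CPM (0.58, SE 0.14, adjusted p 0.0232 in edgeR). Pparg and Rara were called in all 15 other settings. The call of Ppard was lost without any 1 mutant, and that of Nr4a1 without control 2, control 3 or any 1 mutant.

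For hormone entry and conversion, 6 of 9 genes were tested and 0 were called (edgeR), while 3 had an unadjusted p under 0.05. The count of called genes was 2 without control 1, 1 without control 4, 3 without both, 2 with the length offset and 3 with limma-voom, so a lack of change in this list was not shown. Their median log2 fold change was -0.07, with 3 lower and 3 higher. This list holds the membrane transporters that carry the hormone into cells and the deiodinases that activate or inactivate it.

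Genes known to respond to the hormone were listed as well. Of 11 tested hormone-responsive genes, 7 were called lower and 0 higher, with a median log2 fold change of -1.17, where 4.78% of all tested genes were called lower. Hr, a corepressor that is itself a classic target, fell from 41.7 to 6.59 CPM (log2 fold change -2.66, SE 0.17, edgeR adjusted p 3.75e-06). Flywch2 (-1.90), Shh (-1.55) and Sema7a (-1.18) fell as well. Shh had 4 to 29 reads per library, counted on the 14.0% of its span that no other gene covers, and its call was lost without any 1 mutant, control 1 or control 3. This list was drawn up with knowledge of these data and is no independent evidence of its direction or size.

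Markers of other cell types were examined beside these results. Among markers of glutamatergic neurons, oligodendrocytes, astrocytes, microglia and endothelial cells, 7 or 8 were tested per list, and 1 oligodendrocyte gene, Mog (log2 fold change 0.93), and 1 astrocyte gene, Slc4a4 (-0.54), were called. Both are named after their values were seen. The summed level of the 8 glutamatergic markers was 334 to 471 CPM in controls and 276 to 354 CPM in mutants. Most of this sum was Camk2a, at 230 to 330 CPM in controls and 194 to 237 CPM in mutants. Of the 8 glutamatergic markers, 4 were lower, with a median log2 fold change of -0.04. Astrocyte markers summed to 358 to 517 CPM and 300.4 to 343 CPM, with 6 of 7 tested lower and a median of -0.33. Endothelial markers summed to 57.3 to 132 and 56.4 to 87.7 CPM, with 8 of 8 lower and a median log2 fold change of -0.34, oligodendrocyte markers to 170.3 to 208 and 189 to 222 CPM, and microglial markers to 16.5 to 21.6 and 21.6 to 25.9 CPM. The 6 tested GABAergic markers had a median log2 fold change of 0.14, and 0 were called. The part of other cell types in the lower Ncoa1 and Ncoa3 was not tested.

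The plot of fold changes under other settings shows how the 3 lower members held up. Ncoa1 was called in 9 of 15 other settings, Thra in 6 and Rxrb in 4, always with a negative log2 fold change.

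**Figure D5:**
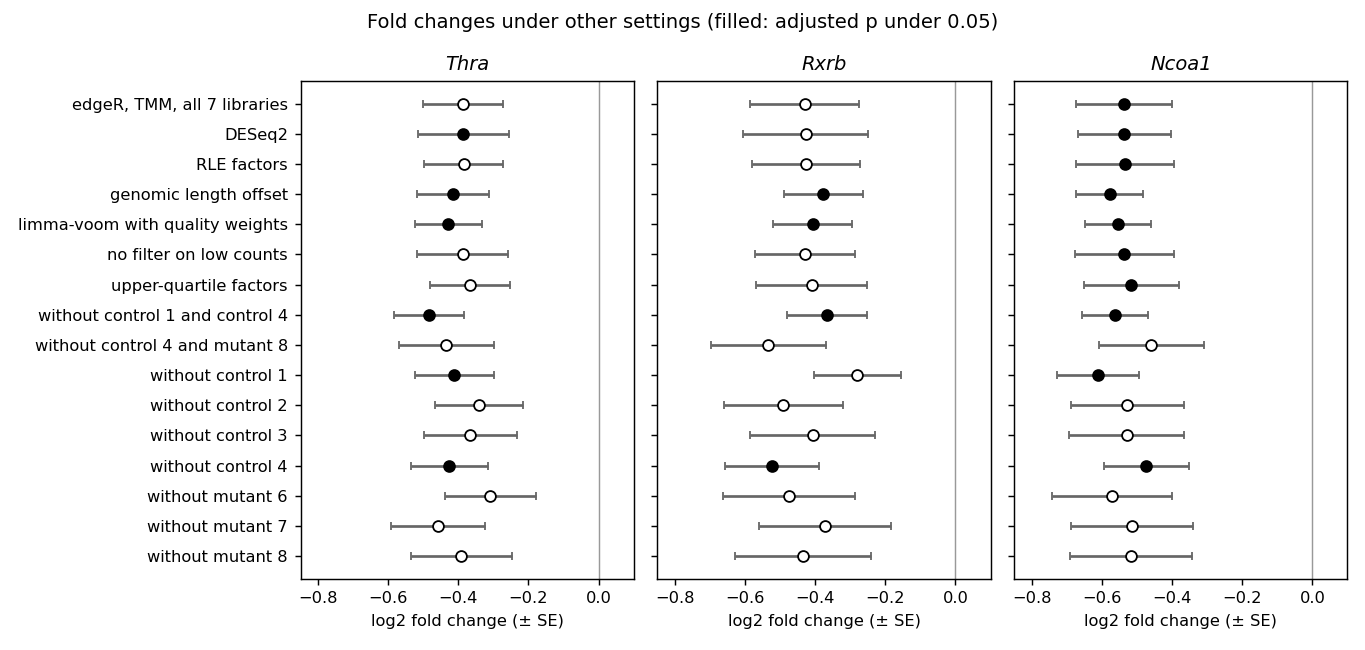
Log2 fold change ± SE of Thra, Rxrb and Ncoa1 (x axes) in edgeR with all 7 libraries (top row) and under 15 other settings (rows), filled where the adjusted p was under 0.05. All points lie below 0, between -0.61 and -0.28, and the filled ones change with the library left out.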

How the data were processed

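The authors deposited a table of raw read counts per gene for each sample, and per the labels' protocols RNA of sorted nuclei was amplified with SMART-Seq v4 and sequenced in pairs. The submitters' processing notes name Bowtie2 2.5.3 and the builds GRCm38 and mm10, and the counting program is not given in the sources used here. All 55450 identifiers were found in GENCODE M21. Counting over gene spans was inferred from the counts. The table of mutant 10 repeats mutant 7 and was left out.

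Genes were kept with edgeR's filterByExpr (minimum count 10, minimum total 15), scaled by TMM and tested with the quasi-likelihood test (edgeR 4.0.16, R 4.3.3), with group as the only term and Benjamini-Hochberg adjustment over all 16448 genes at 0.05. On simulated counts with 198 changed genes, edgeR recovered 75 of 99 at a log2 change of 1 and 93 of 99 at 2, with 12 false calls. Each simulated gene was drawn independently, without the trend with gene length seen between control 1 and control 4. Calls that such a trend may add or hide were thus not measured. The largest log2 fold change among the 9 genes was 0.60 (Rxrg), and recovery of changes smaller than 1 was not tested. Alternatives used DESeq2 1.42.0, limma 3.58.1 (voom with quality weights per library, written limma-voom), other scaling factors, no filter, an offset for gene length, and left-out libraries. Lengths are from GENCODE M21. PCR reads had no molecular identifiers. The p-values measure the spread between these libraries, each from 1 cortex. A list of other corepressor genes was tested and is not reported here, though its calls are in the total over the related lists. The 9 genes and the lists were chosen with earlier results of these data known. Genes outside the 9 are named where they overlap a member, where they were called (at most 4 per list, by size of change), or where their pattern over libraries was among the 3 most like Thra or Thrb. Cell type markers, genes without a base of their own, Dbp and Nr1h4 are named outside this rule. Promoters are RefSeq windows (GRCm38.p6) of 250 bases before to 50 after a start.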

Additional observations from a re-analysis of the deposited data

Results flagged for a closer look

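Among 30 values examined in the 4 controls, 1 had a library far from the others. Dbp, a clock-controlled transcription factor gene on the hormone-responsive list, had 16.8 CPM in control 4, while the other controls lay between 26.2 and 28.1 CPM, a gap of 0.835 of the whole range, above Dixon's 95% critical value. Chance flags about 1 in 20 such groups, and the 3 mutants were too few to examine.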

How the results depend on the processing

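Ncoa1 was called under all 6 alternatives that used all libraries (-0.58 to -0.52) and was -0.46 without control 4 and mutant 8, no longer past the threshold. Leaving out 1 library gave -0.61 to -0.47 for Ncoa1 and -0.46 to -0.31 for Thra. Thra passed with DESeq2 (-0.39), the genomic length offset (-0.42), limma-voom (-0.43) and without control 1 and control 4 (-0.48). Of the 9 genes, 2 were called with DESeq2, 3 with the length offset, 3 with limma-voom, 3 without control 1 and control 4, and 0 without control 4 and mutant 8, and 0 to 3 when 1 library was left out. Genes called over all tested numbered 2711 with the length offset, 3147 with limma-voom, 2778 without control 1 and control 4, and 734 to 2347 when 1 library was left out. Called genes of the related lists numbered 16, and 9 to 18 when 1 library was left out. The sign of Thrb turned without control 4 (0.10) and without control 4 and mutant 8 (0.18), and that of Med1 with upper-quartile factors (0.017), without control 2 (0.019) and without mutant 6 (0.038), where leaving out 1 library gave -0.039 to 0.038 for Med1 and -0.42 to 0.10 for Thrb. Where no value above shows it, the cause was not tested. The unshared span as a length and the ratio of Ncoa2 to Ncoa1 were chosen after seeing the data. No paired analysis was possible because the groups share no replicate number. Of the 9 genes, Rxrg had the fewest reads, 72 to 159 per library.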

Other observations

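Nr1h4, the bile acid receptor gene and another RXR partner, was too low to be tested and is named after its values were seen. It had 8 to 15 reads per control and 0 to 3 per mutant, with 0 in mutant 8. Groups without overlap in CPM were seen for 22.0% of all tested genes. That share was not worked out for genes too low to be tested, so no change was shown for Nr1h4.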
